A study of Mus musculus with 34 samples.

Results

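The p53 pathway was followed through 10 genes, found by symbol among the 13108 gene rows of a count table: Trp53, Mdm2, Mdm4, Atm, Atr, Ccng1, Phlda3, Sesn1, Sesn2 and Trp53inp1. Each had 1 row. RNA came from hematopoietic stem cells (HSCs, LSK CD48-CD150+) of C57BL/6 mice, sorted in samples of 100 cells, with 2 SMART-Seq2 libraries (amplified full-length cDNA) for each mouse. The groups were young Ythdf2 CTL (4 mice), young Ythdf2 CKO (4), aged Ythdf2 CTL (4) and aged Ythdf2 CKO (5). Young mice were 8 to 12 wk old by the study's methods, and aged mice were 1 yr old by the labels. Ythdf2 CTL mice were Ythdf2 fl/fl, and Ythdf2 CKO mice were Ythdf2 fl/fl and carried Vav-iCre, a Cre driven by the Vav promoter that acts in all hematopoietic cells from fetal life on. All mice thus carried the floxed allele, which has loxP sites around exon 2 and GFP fused to the gene, and only Ythdf2 CKO mice carried Cre. YTHDF2 binds mRNAs that bear N6-methyladenosine and promotes their decay.

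p53, the product of Trp53, is a transcription factor that is made and destroyed continuously in unstressed cells. MDM2 attaches ubiquitin to it and MDM4 masks its transactivation domain, while the kinases ATM and ATR, activated by DNA breaks and by stalled replication forks, phosphorylate p53 and MDM2 and so release p53. p53 then binds response elements near its target genes, Mdm2 included, which closes a feedback loop. In HSCs p53 is known for holding cells quiescent and for their response to DNA damage.

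The response element consists of adjacent copies of a 10-base unit, the p53 consensus decamer, which reads the same on both strands. RefSeq promoters of GRCm38.p6, running from 250 bases before to 50 bases after a start site, were at hand for 9 of the 10 genes (11 promoters). A decamer without mismatch was present in 4 of the 11, compared with 8.36% of the 32851 mouse promoters of the same length. These 4 were the promoter of Trp53, with GGACTTGCCC starting at −75 from the start site, that of Mdm2, with GAACTTGCCT at −186, that of Ccng1, with GGGCAAGCCT at −185, and 1 of the Sesn1 promoters, with AAGCTTGTTT at −173. In Ccng1 the decamer formed the second part of a 20-base element with 1 mismatch, which 0.0883% of the promoters held. The closest 20-base match in the Mdm2 promoter had 5 mismatches. These matches describe letters in a window, elements outside it were not searched, and the libraries measured no binding. The promoters of the 2 genes that passed the test in a comparison, Mdm2 and Atm, are shown with that of Ccng1, the one with the full element, and that of Sesn2. With all mice Sesn2 had the largest log2 fold increases with age among the 10 genes, though they did not pass the test. In Ythdf2 CTL HSCs its value was 1.08 without aged mouse 99. Capitals mark the decamer, or the full element in Ccng1. The windows of Atm and Sesn2 held no match.
Mdm2, chr10:117710709-117711008, minus strand: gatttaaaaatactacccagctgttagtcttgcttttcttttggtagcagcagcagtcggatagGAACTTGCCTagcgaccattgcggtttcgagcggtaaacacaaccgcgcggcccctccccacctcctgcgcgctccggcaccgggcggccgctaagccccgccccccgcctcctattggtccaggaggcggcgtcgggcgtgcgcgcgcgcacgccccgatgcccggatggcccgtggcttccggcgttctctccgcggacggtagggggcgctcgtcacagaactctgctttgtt
Ccng1, chr11:40755237-40755536, minus strand: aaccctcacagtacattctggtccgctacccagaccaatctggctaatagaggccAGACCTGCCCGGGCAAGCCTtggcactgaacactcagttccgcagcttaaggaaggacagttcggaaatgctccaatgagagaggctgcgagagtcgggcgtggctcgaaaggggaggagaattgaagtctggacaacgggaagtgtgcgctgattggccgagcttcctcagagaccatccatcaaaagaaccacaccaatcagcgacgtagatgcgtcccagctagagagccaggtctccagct
Atm, chr9:53536622-53536921, minus strand: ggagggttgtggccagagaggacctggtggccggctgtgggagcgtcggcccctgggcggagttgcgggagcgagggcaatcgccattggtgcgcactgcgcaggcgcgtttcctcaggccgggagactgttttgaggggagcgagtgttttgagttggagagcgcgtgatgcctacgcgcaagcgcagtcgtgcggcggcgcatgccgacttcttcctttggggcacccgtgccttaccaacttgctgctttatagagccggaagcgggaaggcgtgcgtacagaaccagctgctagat
Sesn2, chr4:132510407-132510706, minus strand: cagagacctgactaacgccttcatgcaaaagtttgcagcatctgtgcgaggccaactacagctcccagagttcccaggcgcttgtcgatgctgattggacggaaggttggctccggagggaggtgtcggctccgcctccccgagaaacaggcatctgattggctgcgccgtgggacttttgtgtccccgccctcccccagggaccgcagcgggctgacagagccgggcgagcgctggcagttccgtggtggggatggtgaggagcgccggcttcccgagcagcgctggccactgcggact

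Of 34 libraries, 33 were used, with 1859784 to 7784627 counts each, and a mouse had 2218618 to 10125624 counts once its libraries were summed. The left-out library, aged Ythdf2 CTL 99 B, had 187034 counts. Levels are CPM, counts scaled to a common library size by the TMM method, and 3 counts in a mouse stood for 0.292 to 1.24 CPM. The libraries carry no molecular identifiers, so this floor covers counting error only. The study's methods state that control mice were littermates, but the labels do not give the litter or day of any mouse. Litter could thus not enter the fits, and p-values measure the spread between these mice. Of the 12 HSC markers examined, all had a row, and their summed level was 1790 to 3350 CPM over the mice. Transcripts of other lineages were present too. Over the mice the summed level was 379 to 888 CPM for 6 monocyte and macrophage markers, 144 to 530 CPM for the 2 T and NK cell markers with a row and 32.5 to 152 CPM for the 3 B cell markers with a row, of which Ms4a1 was at 0 in every mouse. It was 31.8 to 103 CPM for 3 stromal and endothelial, 9.46 to 91.1 CPM for 5 erythroid and 3.15 to 114 CPM for 7 granulocyte markers. The mean log2 CPM of 4 Y-linked genes was above 2 in 3 of 4 young Ythdf2 CTL mice, in 1 of 4 young Ythdf2 CKO, 1 of 4 aged Ythdf2 CTL and 1 of 5 aged Ythdf2 CKO mice, so these mice were not balanced between the young groups. Aged Ythdf2 CTL mouse 114 had Y-linked reads below that level (−1.51), and the other mice had none.

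The deleted gene was read first, as a check of the labels. In young mice Ythdf2 (chr4:132184912-132212303) averaged 108 ± 14.9 CPM (SD, n = 4) in Ythdf2 CTL HSCs. In Ythdf2 CKO HSCs it averaged 55.9 ± 4.2 CPM (SD, n = 4). The log2 fold change was −0.95 (SE 0.17, adjusted p = 0.0389, from the quasi-likelihood test of edgeR, adjusted by Benjamini-Hochberg). The call was lost, at an adjusted p between 0.0748 and 0.2 by edgeR, when any 1 of the 8 mice but Ythdf2 CKO 3 was left out, and with Y-linked expression as a covariate (adjusted p = 0.168). In aged mice 2 animals went against their labels. One, labelled aged Ythdf2 CKO 121, had 188.1 CPM, where the 4 others of its group had 72.4 to 87.8 CPM. The other, labelled aged Ythdf2 CTL 124, had 70.5 CPM, where the remaining 3 had 142 to 179 CPM. With these 2 mice the aged log2 fold change was −0.48 (SE 0.33, adjusted p = 0.661, edgeR). Without them it was −1.06, given with no test, since they were singled out by the level of this gene. In comparisons with aged mice, the values of the 10 genes are therefore given with all mice and without these 2.

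Among the 10 genes, Trp53 had the highest level per kilobase of transcript in each group. In young Ythdf2 CTL HSCs it was at 152 ± 9.98 CPM per kb (SD, n = 4). It was followed by Sesn1, a stress-induced inhibitor of mTORC1 signaling, at 38 ± 8.71 CPM per kb. Next came Ccng1, which encodes cyclin G1, at 21.7 ± 3.94, Atm at 11.4 ± 1.32 and Mdm2 at 10.9 ± 2.18 CPM per kb. Trp53inp1, a p53 cofactor linked to cell death and autophagy, was at 6.67 ± 2.89, Atr at 6.05 ± 0.641 and Mdm4 at 5.66 ± 1.5 CPM per kb. The lowest were Phlda3, which encodes an inhibitor of AKT, at 2.21 ± 1.61 and Sesn2, the paralog of Sesn1, at 1.27 ± 0.379 CPM per kb. Atm and Mdm2 differed by less than their spread, as did Trp53inp1, Atr and Mdm4 among themselves, and Phlda3 and Sesn2. In both aged groups the order changed below Sesn1. In aged Ythdf2 CTL HSCs (SD, n = 4) Sesn1 was at 50 ± 20.1, Mdm2 at 24.7 ± 6.32, Ccng1 at 21.7 ± 5.38 and Phlda3 at 7.91 ± 5.92 CPM per kb. In aged Ythdf2 CKO HSCs (SD, n = 5) they were at 37.6 ± 4.11, 28.3 ± 5.69, 26.1 ± 8.8 and 12.4 ± 6.13 CPM per kb. Atm was the lowest of the 10 in both, at 4.02 ± 1.41 and 3.2 ± 0.567 CPM per kb. Mdm2 and Ccng1 differed by less than their spread in both aged groups, as did Atm and Atr in aged Ythdf2 CTL.

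**Figure D1:**
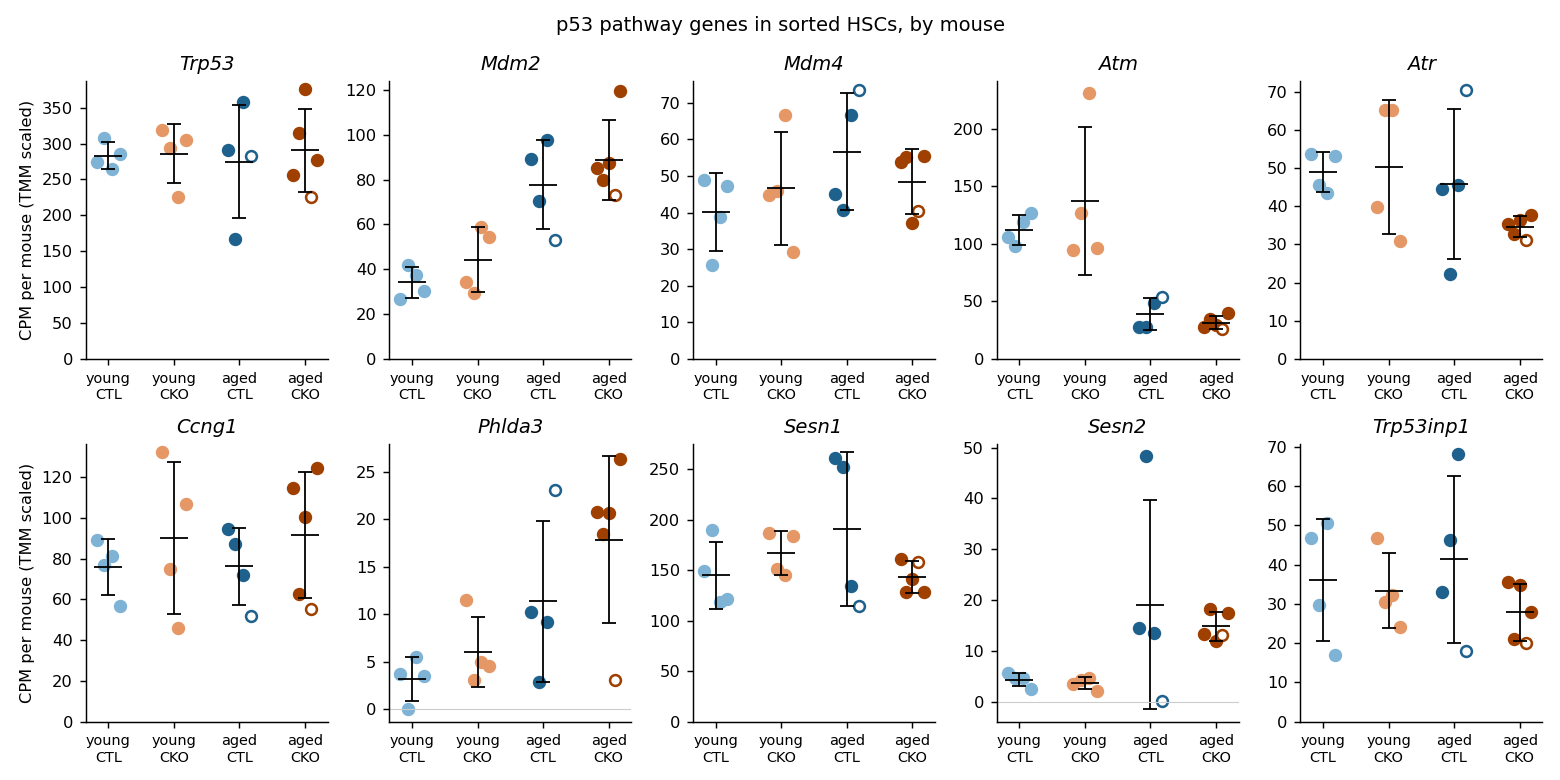
CPM (TMM scaled) of each of the 10 genes in each mouse, by group, with a panel and a linear axis for each gene; black marks are the mean and SD (n = 4, 4, 4 and 5 mice) and open circles are the mice labelled aged CTL 124 and aged CKO 121. Mdm2 was higher and Atm lower in every aged mouse than in every young mouse of the same genotype, while Trp53 lay between 167.5 and 376.5 CPM over the 17 mice, with the groups overlapping.

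The first comparison asked whether loss of YTHDF2 went with a different level of these transcripts in young HSCs. It did not move any of them past the test. Trp53 (chr11:69580359-69591873) was at 274, 308, 265 and 285.5 CPM in the 4 young Ythdf2 CTL mice and at 319, 294, 226 and 305 CPM in the 4 young Ythdf2 CKO mice. The groups overlapped, with a log2 fold change of 0.02 (SE 0.14, adjusted p = 0.989, edgeR).

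Mdm2 (chr10:117688875-117710758), the ubiquitin ligase of p53 and one of its targets, was at 26.8, 42.1, 37.5 and 30.5 CPM in young Ythdf2 CTL and at 34.2, 29.4, 58.7 and 54.2 CPM in young Ythdf2 CKO mice. Of the Ythdf2 CKO mice, 2 lay above all Ythdf2 CTL mice and 2 among them, with a log2 fold change of 0.37 (SE 0.27, adjusted p = 0.892, edgeR). For Mdm4 (chr1:132959484-133030561) the log2 fold change was 0.22 (SE 0.27). The kinases gave 0.29 (SE 0.24) for Atm (chr9:53439149-53536740) and 0.04 (SE 0.25) for Atr (chr9:95857597-95951781). Of the target genes, the log2 fold change was 0.25 (SE 0.26) for Ccng1 (chr11:40748552-40755311), 0.21 (SE 0.17) for Sesn1 (chr10:41809935-41908424), 0.92 (SE 0.82) for Phlda3 (chr1:135766119-135769136), −0.25 (SE 0.59) for Sesn2 (chr4:132492032-132510501) and −0.11 (SE 0.32) for Trp53inp1 (chr4:11156431-11174379).

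In young mice 0 of the 10 genes were called at an adjusted p below 0.05 by edgeR, where 0.121% of the 11526 genes tested were called higher and 0.0347% lower. None of the 10 reached an unadjusted p of 0.05 either (0 of 10), beside 7.08% of all genes, and DESeq2 over mice and the likelihood ratio test of edgeR called 0 of the 10 too. No gene had groups of mice that did not overlap, beside 4.77% of all genes, and the two-sided exact permutation test over 4 against 4 mice, whose smallest p is 0.0286, passed for 0 of 10. The log2 fold change was positive for 8 of 10 genes, with a median of 0.21, and for 49.9% of all genes, with a median of 0. The test recovered 21% of simulated 2-fold changes and 73.5% of 4-fold changes in this comparison, so changes of either size could be missed. The changed genes were drawn at random from all genes, so these shares are not the power for any 1 of the 10. The SE of the 10 genes ran from 0.14 for Trp53 to 0.82 for Phlda3.

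In aged mice the same comparison again gave 0 called genes of 10, where edgeR called 0% of the 11961 genes tested, and 0 of 10 at an unadjusted p below 0.05, beside 10.1% of all genes. DESeq2 over mice and the likelihood ratio test also called 0 of the 10. The log2 fold change was positive for 4 of 10 genes, with a median of −0.27, and for 49.7% of all genes. Trp53 was at 291, 167.5, 357.5 and 283 CPM in aged Ythdf2 CTL and at 257, 315, 376.5, 226 and 278 CPM in aged Ythdf2 CKO mice. These ranges overlapped, with a log2 fold change of 0.09 (SE 0.22). Mdm2 gave 0.20 (SE 0.22), Mdm4 −0.22, Atm −0.32, Atr −0.39, Ccng1 0.27, Sesn2 −0.35 and Trp53inp1 −0.56, and the adjusted p of the 10 genes lay between 0.603 and 0.93 by edgeR.

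Leaving out the 2 discordant mice brought Mdm4 to −0.02, Atm to −0.08 and Atr to −0.09, with Trp53 at 0.17, Mdm2 at 0.11, Ccng1 at 0.25 and Sesn2 at −0.72 (SE 0.46). The median of the 10 genes was then −0.05, and 4 of 10 were positive, beside 49.2% of all genes. Phlda3 and Sesn1 had the smallest p without these mice. Sesn1 was at 261, 252, 135 and 115 CPM in aged Ythdf2 CTL mice, the last being mouse 124, and at 160.5, 128, 141, 158 and 128 CPM in aged Ythdf2 CKO mice, of which mouse 121 had 158 CPM. The Ythdf2 CKO mice formed a narrow band within the range of the Ythdf2 CTL mice, 2 of which lay far above it. Its log2 fold change was −0.41 (SE 0.24) with all mice and −0.63 (SE 0.22, p = 0.0122, adjusted p = 0.272, edgeR) without both. Phlda3 was at 10.3, 2.89, 9.13 and 23.1 CPM in aged Ythdf2 CTL mice, mouse 124 being the highest, and at 20.8, 18.4, 20.6, 3.03 and 26.4 CPM in aged Ythdf2 CKO mice, mouse 121 being the lowest. With all mice the groups overlapped, with a log2 fold change of 0.65 (SE 0.62). Without both mice they did not, at 7.43 ± 3.98 CPM (SD, n = 3) against 21.5 ± 3.4 CPM (SD, n = 4), and the two-sided exact permutation p was 0.0571, the smallest that 4 against 3 mice allow. The log2 fold change was then 1.49 (SE 0.46, p = 0.00618, adjusted p = 0.209 by edgeR). So 1 of the 10 genes did not overlap without these mice, beside 11.5% of all genes, and 0 of 10 with them, beside 3.48%. Trp53inp1 gave −0.72 (p = 0.0345, adjusted p = 0.382, edgeR) without both mice. Sesn1, Phlda3 and Trp53inp1 were thus the 3 of 10 genes past an unadjusted p of 0.05 without these mice, beside 11.6% of all genes, and 0 of 10 passed after adjustment, beside 0.342%.

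Of 6 megakaryocyte and platelet markers, edgeR called 0 between genotypes at either age with all mice. At an unadjusted p below 0.05, 4 were higher and 1, Gp9, was lower in young Ythdf2 CKO mice (median log2 fold change 1.07), beside 7.08% of all genes in either direction, and 5 were higher in aged Ythdf2 CKO mice (median 1.15), beside 10.1%. Without the 2 discordant mice 2 of 6, Itga2b and Pf4, were called higher in aged Ythdf2 CKO mice, where 0.342% of genes were called. Their summed level ran from 513 to 872 CPM in young Ythdf2 CTL, 1010 to 3150 in young Ythdf2 CKO, 390 to 612 in aged Ythdf2 CTL and 568 to 2080 CPM in aged Ythdf2 CKO mice, and none was at 0 in every mouse of a group. Of 6 proliferation markers, 3 were lower at an unadjusted p below 0.05 in young Ythdf2 CKO HSCs, with a summed level of 816 to 1400 CPM against 889 to 1700 CPM in young Ythdf2 CTL mice, and none was at 0 in every mouse. Of the 12 HSC markers, Ly6a, which encodes Sca-1, was called higher in young Ythdf2 CKO mice (1.20, SE 0.19, adjusted p = 0.0152, edgeR), and it gave 0.65 (adjusted p = 0.503, edgeR) in aged mice. The part of these markers in the values of the p53 pathway was not tested. In pools of cells, fewer cells with a transcript and less of it per cell cannot be told apart.

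The genotype effect itself was compared between ages by the interaction term of a fit over 17 mice. Of the 10 genes 0 were called, as were 0% of 12352 genes, and 0 of 10 passed an unadjusted p of 0.05, beside 4.76% of all genes. The difference, aged minus young, ran from −0.62 for Sesn1 (SE 0.31, p = 0.0604) and Atm (SE 0.37, p = 0.109) to 0.06 for Trp53 (SE 0.27), each with an adjusted p of 0.999 by edgeR. For Sesn1 it was −0.83 (SE 0.29, p = 0.0079, adjusted p = 0.513) without the 2 discordant mice, the only one of the 10 then at an unadjusted p below 0.05, beside 6.67% of all genes. The others lay between −0.61 for Trp53inp1 and 0.59 for Phlda3 without these mice.

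**Figure D2:**
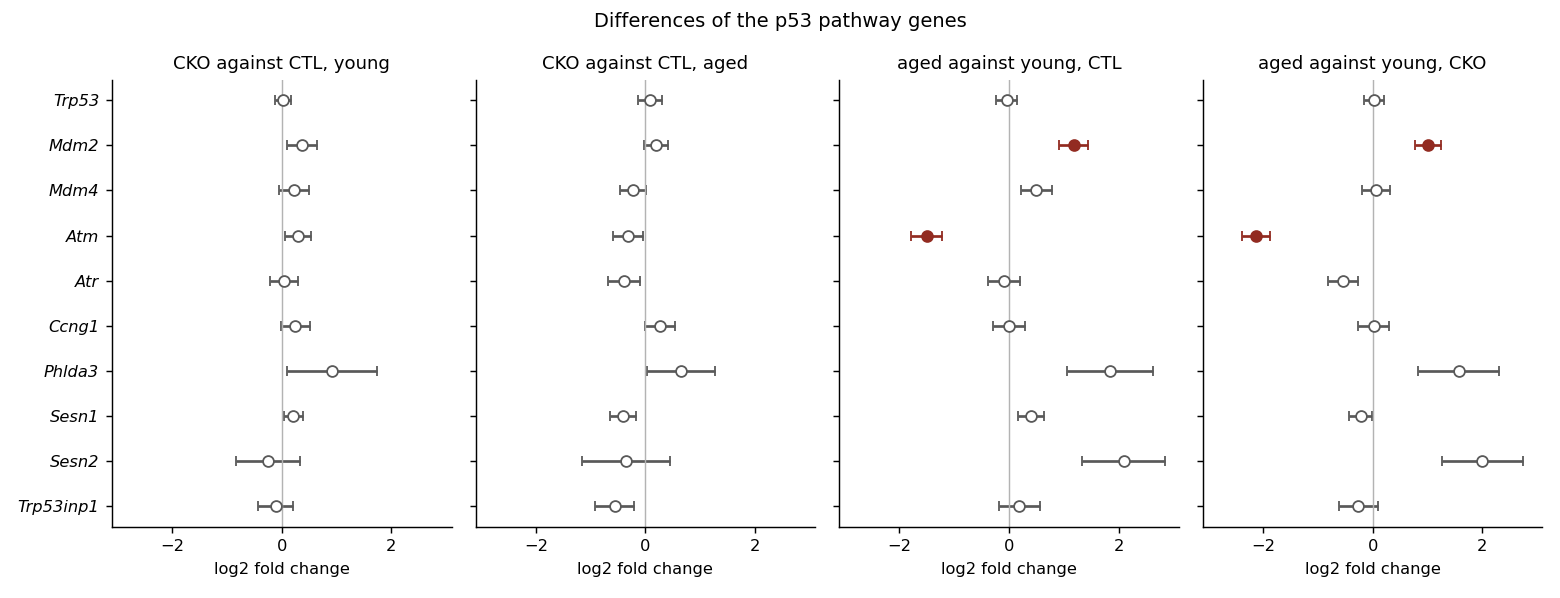
Log2 fold change of each gene (points) with its standard error (bars) from edgeR in 4 comparisons, CKO against CTL in young and in aged mice and aged against young in CTL and in CKO mice; filled points have an adjusted p below 0.05. Filled points are Mdm2 and Atm in both comparisons of aged with young mice, and there are none in the comparisons of genotypes.

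Aged and young mice were compared next, within each genotype. Whether libraries of young and aged mice were prepared together is not given in the sources used here, and if they were not, age and preparation cannot be told apart in any value that follows. Mdm2 was higher and Atm was lower in aged HSCs of both genotypes, and Trp53 was at a like level. Of the 10 genes 1 was called higher and 1 lower in Ythdf2 CTL HSCs, where edgeR called 6.71% of 12352 genes higher and 8.16% lower. In Ythdf2 CKO HSCs 1 was called higher and 1 lower too, where 7.22% of genes were called higher and 9.42% lower. In each genotype 4 of the 10 genes had an unadjusted p below 0.05, beside 29.9% of all genes in Ythdf2 CTL and 30.2% in Ythdf2 CKO HSCs.

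Cell type and proliferation markers also differed between the ages. Of 6 megakaryocyte and platelet markers, Vwf (1.80) was called higher in aged Ythdf2 CTL HSCs, and Vwf (1.48), Itga2b (1.35) and Gp9 (0.83) in aged Ythdf2 CKO HSCs. Nkg7, of the T and NK cell list, was called lower in both genotypes (−0.93 and −0.84), and the summed level of that list was 355 to 530 CPM in young and 144 to 329 CPM in aged mice. Col1a2, of the stromal list, was called higher (2.76) and Cdk1, of 6 proliferation markers, lower (−0.82) in Ythdf2 CTL HSCs. Among the HSC markers, Gata2 (1.05) and Kit (0.47) were called higher and Ly6a (−1.10) lower in aged Ythdf2 CKO HSCs. These calls had adjusted p between 0.00122 and 0.0453 by edgeR, and none was made among B cell, erythroid, granulocyte and monocyte markers with all mice. The part of these markers in the changes with age of Mdm2, Atm and the p53 targets was not tested.

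Mdm2 rose in Ythdf2 CTL HSCs from 26.8 to 42.1 CPM in the 4 young mice to 89.3, 70.6, 97.8 and 53.2 CPM in the 4 aged mice. Every aged mouse lay above every young mouse, with a log2 fold change of 1.18 (SE 0.26, adjusted p = 0.00448, edgeR), or 2.27-fold. In Ythdf2 CKO HSCs Mdm2 rose from 29.4 to 58.7 CPM in young mice to 85.1, 79.9, 87.2, 72.9 and 119 CPM in aged mice. Again the groups did not overlap, with a log2 fold change of 1.01 (SE 0.24, adjusted p = 0.00704, edgeR), or 2.01-fold. Over the alternatives the adjusted p lay between 2.98e-05 and 0.0218 in Ythdf2 CTL and between 0.000134 and 0.0361 in Ythdf2 CKO HSCs. Mdm2 gave 1.33 and 1.07 without the 2 discordant mice. Mdm4, the other inhibitor of p53, gave 0.50 (SE 0.28, adjusted p = 0.239) in Ythdf2 CTL and 0.06 (SE 0.26) in Ythdf2 CKO HSCs, or 0.34 and 0.12 without both mice.

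Atm fell in Ythdf2 CTL HSCs from 106, 97.9, 119 and 127 CPM in young mice to 27.6, 27.6, 48.2 and 54.2 CPM in aged mice. The highest aged mouse was thus well below the lowest young one, with a log2 fold change of −1.50 (SE 0.28, adjusted p = 0.00167, edgeR), or 2.83-fold lower. In Ythdf2 CKO HSCs it fell from 94.9, 127, 231 and 96.6 CPM to 27.5, 34.5, 29.8, 25.9 and 39.6 CPM. Young mouse 3 stood above the rest through library B, at 437.6 CPM, while its library A was at 137.1 CPM. No aged mouse came near any young one, with a log2 fold change of −2.13 (SE 0.26, adjusted p = 7.13e-05, edgeR), or 4.38-fold lower. With 1 mouse left out this log2 fold change ran from −2.27 to −1.76. The adjusted p was at most 0.00926 and 0.000408 over the alternatives, and without the 2 discordant mice Atm gave −1.70 and −2.06. Atr, the related kinase, gave −0.09 (SE 0.29) and −0.54 (SE 0.27, adjusted p = 0.191), or −0.37 and −0.50 without both mice. Atr shares 726 exonic bases with the antisense gene 1700065D16Rik, which has a row of its own, and since the use of strand in counting is not given in the sources used here, reads of this stretch may belong to either.

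Sesn2, whose product inhibits mTORC1 and is induced by p53 and by amino acid shortage, had the largest log2 fold changes of the 10 genes in the aged direction, 2.09 (SE 0.76, adjusted p = 0.0658) in Ythdf2 CTL and 2.00 (SE 0.74, adjusted p = 0.0651) in Ythdf2 CKO HSCs by edgeR, neither past the test. It was at 2.58 to 5.72 CPM in young Ythdf2 CTL mice and at 14.5, 48.3, 13.6 and 0.14 CPM in aged ones, mouse 124 being the last. It was at 2.1 to 4.78 CPM in young Ythdf2 CKO mice and at 12.1 to 18.2 CPM in aged ones, with no overlap. Without the 2 discordant mice Sesn2 was called higher in both genotypes, as were 7.86% of genes in Ythdf2 CTL and 7.83% in Ythdf2 CKO HSCs, with log2 fold changes of 2.51 (SE 0.5, adjusted p = 0.00196) and 2.04 (SE 0.48, adjusted p = 0.00511), both by edgeR. Without aged Ythdf2 CTL mouse 99, which had the 48.3 CPM, the value in Ythdf2 CTL HSCs was 1.08 (adjusted p = 0.364, edgeR).

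Phlda3 showed the same direction, with 1.84 (SE 0.78, p = 0.0279, adjusted p = 0.117) in Ythdf2 CTL and 1.57 (SE 0.74, p = 0.0454, adjusted p = 0.156) in Ythdf2 CKO HSCs by edgeR. It rested on few counts, since its mean was 3.17 ± 2.31 CPM (SD, n = 4) in young Ythdf2 CTL and 6.01 ± 3.72 CPM (SD, n = 4) in young Ythdf2 CKO mice. Sesn1 gave 0.40 (SE 0.23) and −0.22 (SE 0.21), and Trp53inp1 0.19 (SE 0.37) and −0.26 (SE 0.35). Ccng1 gave 0 (SE 0.3) and 0.02 (SE 0.28), and Trp53 −0.04 (SE 0.19) and 0.02 (SE 0.18). Without the 2 discordant mice Phlda3 gave 1.25 and 1.84 (adjusted p = 0.0541, edgeR), Sesn1 0.58 (adjusted p = 0.0588, edgeR) and −0.26, Trp53inp1 0.44 and −0.16, Ccng1 0.15 and 0.16, and Trp53 −0.05 and 0.10. Groups of mice did not overlap for 2 of the 10 genes in Ythdf2 CTL HSCs, Mdm2 and Atm, beside 17.1% of all genes, and for 3 of 10 in Ythdf2 CKO HSCs, Mdm2, Atm and Sesn2, beside 20.4%, both with all mice. These shares are near that background.

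Aged and young libraries also differed by the length of genes. Genes were split into 10 groups by exonic length, and the median log2 fold change with age ran from −0.39 in the shortest to 0.32 in the longest group in Ythdf2 CTL HSCs. In Ythdf2 CKO HSCs it was −0.38 in the shortest group, reached 0.26 in the sixth and was 0.03 in the longest. Atm, with 10338 exonic bases, belongs to the longest group, of which 7 other genes lay below it and 1224 above it in Ythdf2 CTL HSCs, and 9 below and 1222 above it in Ythdf2 CKO HSCs. Mdm2, with 5083 bases, lay above 1086 and below 144 of the other genes of its group in Ythdf2 CTL and above 1042 and below 188 in Ythdf2 CKO HSCs. Phlda3, with 1559 bases, is in the shortest group, whose median fell, and lay above 1214 and 1213 of its genes. Sesn2, with 3475 bases, lay above 1204 and 1208 of its group. The medians of the groups holding Atm, Phlda3 and Sesn2 thus differed from these genes by more than 1 on the log2 scale.

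A smaller trend with length lay between the genotypes in aged mice, where the median log2 fold change of Ythdf2 CKO against Ythdf2 CTL HSCs ran from 0.10 in the third group to −0.25 in the longest. An index of the trend in each mouse was 0.24 to 0.57 in aged Ythdf2 CTL and 0.03 to 0.39 in aged Ythdf2 CKO mice, so the groups overlapped. The overlap rested on mouse 121, at 0.39, and without the 2 discordant mice the index was 0.24 to 0.57 against 0.03 to 0.12, with no overlap. The longest group holds Mdm4, Atm and Atr, whose values of −0.22, −0.32 and −0.39 in this comparison thus stand beside a median of −0.25. The part of length in these values was not tested.

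**Figure D3:**
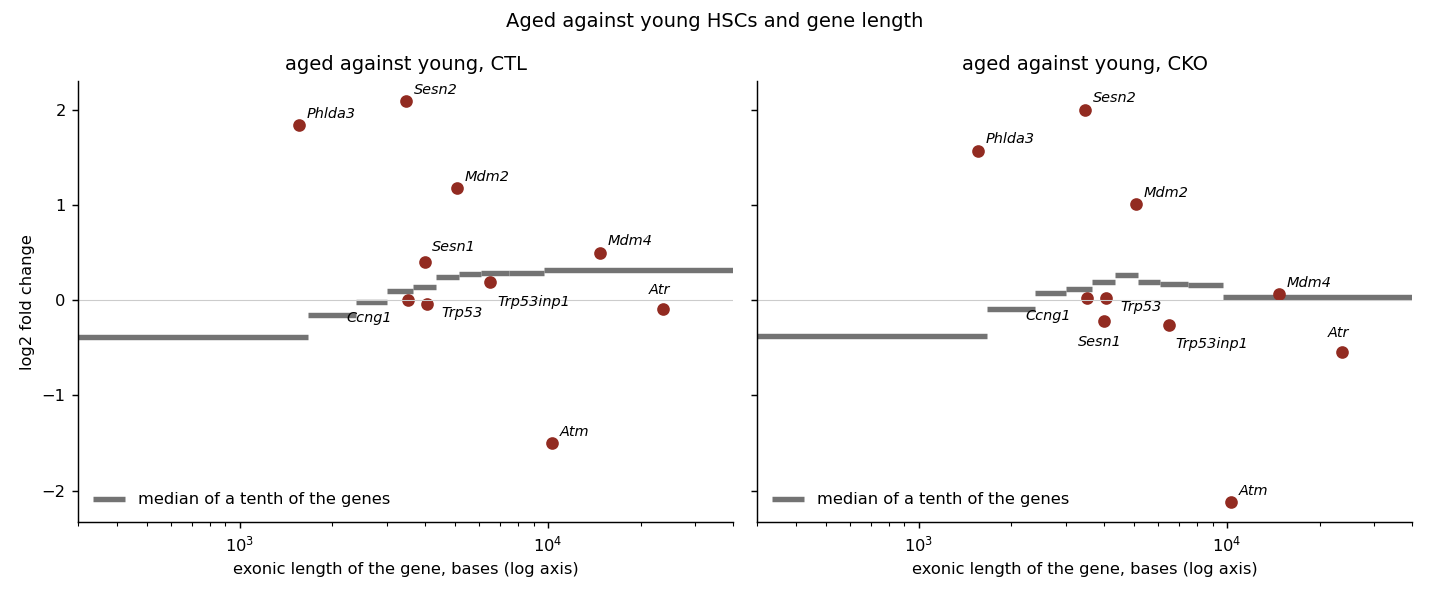
Log2 fold change of aged against young HSCs in CTL mice (left) and CKO mice (right) against the exonic length of a gene in bases on a log axis; gray bars are the medians of 10 groups of genes of like length, each bar spanning the lengths of its group up to the edge of the plot, and red points are the 10 genes. Atm lies below the bar of the longest genes, at −1.50 in CTL and −2.13 in CKO mice, and Phlda3, Sesn2 and Mdm2 lie above theirs.

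The 2 libraries of a mouse, each from 100 cells, showed how far a level could vary without a change of animal. The SD of log2 CPM between libraries of a mouse was 0.26 for Trp53, 0.33 for Sesn1, 0.4 for Mdm2, 0.51 for Atm and 0.65 for Atr over 16 mice, and the SD between mice of a group was 0.3, 0.36, 0.37, 0.42 and 0.44 in the same order. For Phlda3 and Sesn2 it was 1.7 and 1.64, and these were the only ones of the 10 genes with libraries at 0, in 5 of 33 libraries each. The level of Phlda3 in aged Ythdf2 CTL mouse 124 came from library A alone, at 49.2 CPM, with 0 in library B. In aged Ythdf2 CKO mouse 81 Sesn2 was at 23.8 CPM in library A and 0 in library B. In young Ythdf2 CTL mouse 2 Phlda3 was at 0 in both libraries. For both genes this SD between libraries was larger than their log2 fold change between genotypes at either age.

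**Figure D4:**
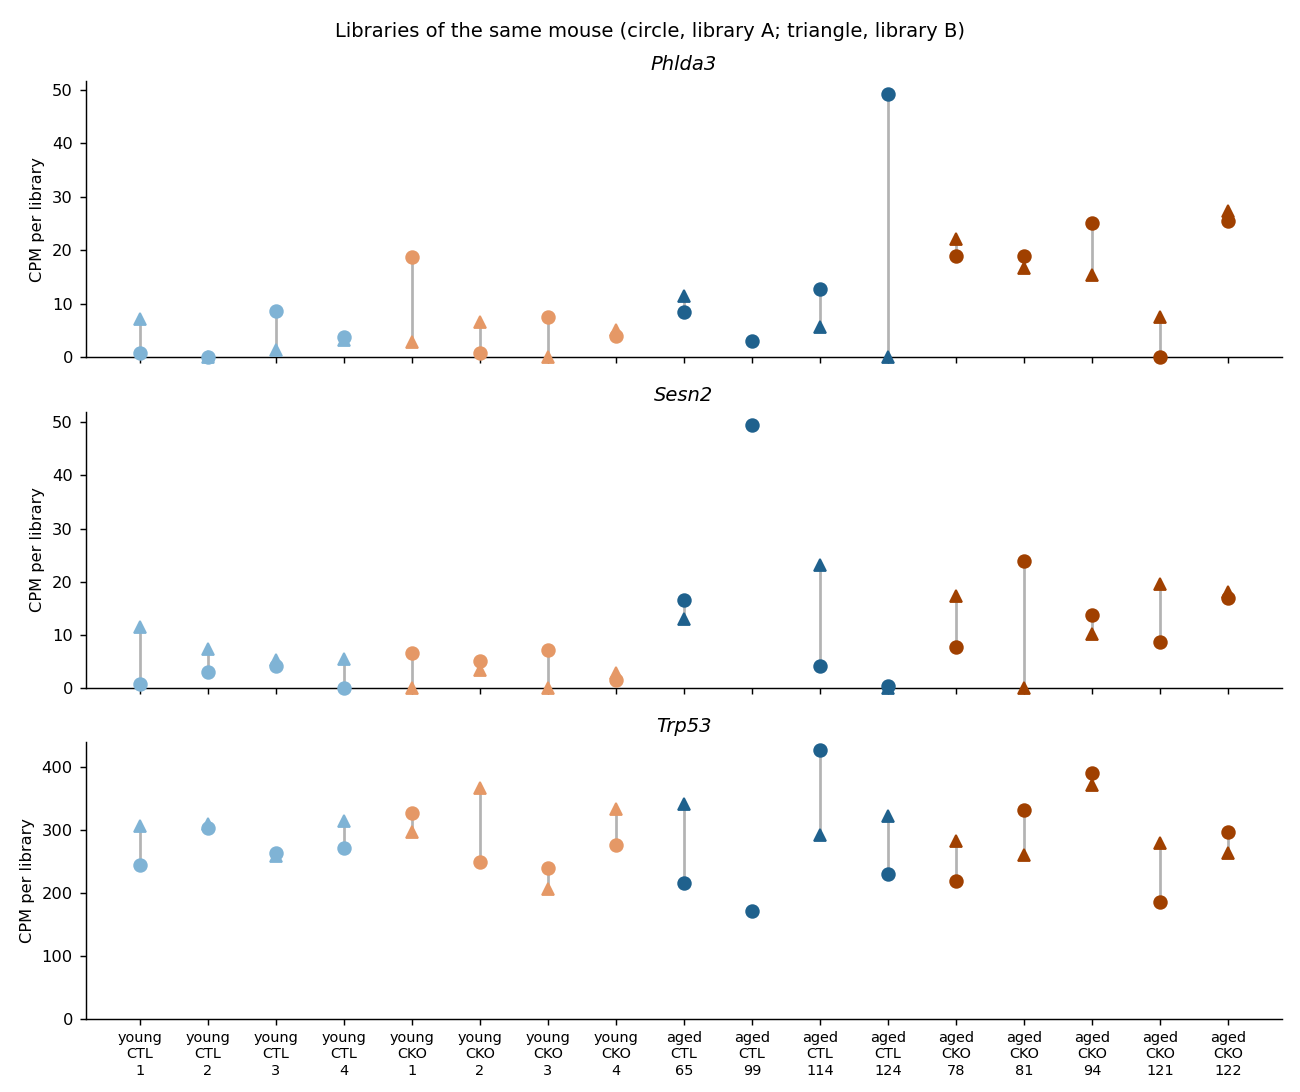
CPM of Phlda3 (top), Sesn2 (middle) and Trp53 (bottom) in each library, on linear axes that start at 0, with both libraries of a mouse joined by a line (circle, A; triangle, B; aged CTL 99 has library A alone). Phlda3 and Sesn2 were at 0 in 5 of 33 libraries each, and Trp53 was at 0 in none.

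The genes were then compared with each other across the 17 mice, as log2 CPM from which the mean of each group was subtracted. Of 45 pairs, 25 had a positive and 19 a negative Pearson r, from −0.81 to 0.78 with a median of 0.08. Atm and Sesn1 varied in opposite directions, with r = −0.81 (permutation p = 5e-05, 0.00225 after Benjamini-Hochberg adjustment over 45 pairs) and Spearman's rho = −0.92 (permutation p = 7e-05, adjusted 0.00315), and r = −0.87 without the 2 mice farthest from the median of Atm. Within young mice r was −0.64 (8 mice) and within aged mice −0.97 (9 mice), or −0.96 without the discordant mice (7 mice). Mice with more Atm transcript than their group had less Sesn1 at both ages. Mdm4 and Atr rose and fell together, with r = 0.69 (permutation p = 0.00177, adjusted 0.0398), rho = 0.76 (permutation p = 0.00155, adjusted 0.0349) and r = 0.66 without the 2 farthest mice. This pair had r = 0.63 and an adjusted permutation p of 0.227 once both discordant mice were left out. Mdm4 and Atm gave r = 0.78 (permutation p adjusted 0.055) and Mdm4 and Sesn1 r = −0.71 (adjusted 0.0819).

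All these points share libraries, depth and scaling, and an index of the length trend, computed for each mouse, had r = −0.24 with Atm, 0.28 with Sesn1, −0.35 with Mdm4 and −0.33 with Atr over 17 mice, centered on the groups. The part of that trend in the pairs was not tested. Trp53 itself was not in a pair that passed. The genes most like Trp53 across the 17 mice, among 12351 compared, were Paf1, Fam110b and Slain2, each with r = 0.87 of centered log2 CPM. They were picked as the highest of these 12351 values, and their likeness to Trp53 was not tested.

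**Figure D5:**
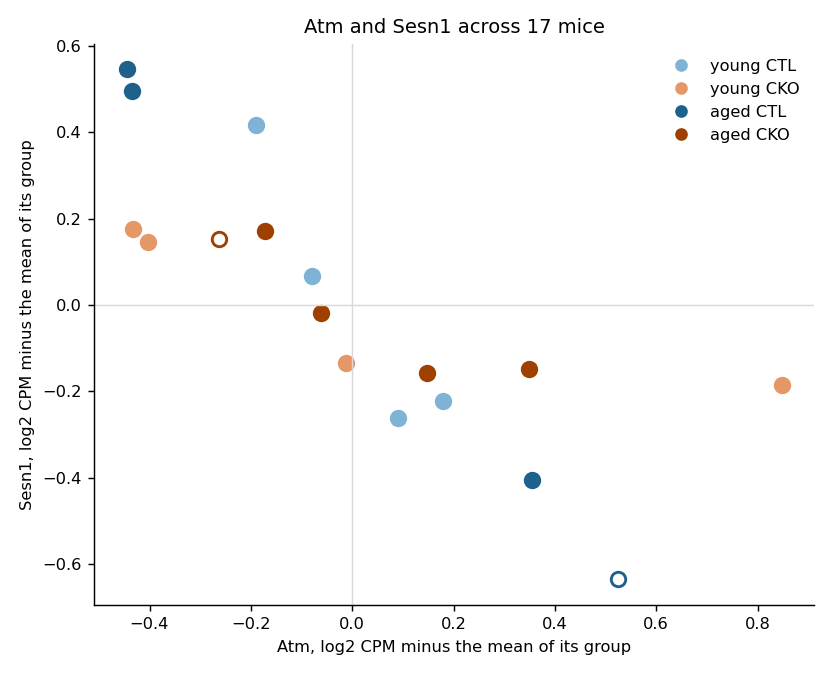
Atm (x axis) against Sesn1 (y axis) in 17 mice, both as log2 CPM minus the mean of the group; colors are the 4 groups and open circles are the mice labelled aged CTL 124 and aged CKO 121. The points run from upper left to lower right, with r = −0.81.

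The wider pathway was read through 5 lists, and in both comparisons of genotypes edgeR called 0 genes of each, with 6 of 63 genes in young mice at an unadjusted p below 0.05, beside 7.08% of all genes, and 8 of 65 in aged mice, beside 10.1%. Without the 2 discordant mice edgeR again called 0 of 65 in aged mice, and 10 of 65 were at an unadjusted p below 0.05, beside 11.6% of all genes. DESeq2 over mice called 1 of them at each age, Eda2r in young (adjusted p = 0.0206) and Ep300 in aged mice (adjusted p = 0.000913), and so did the likelihood ratio test of edgeR over mice (adjusted p = 0.0145 and 0.00198). Of 8 cell cycle arrest targets of p53, Cdkn1a, the p21 inhibitor of cyclin-dependent kinases, was at 2.35 to 10.9 CPM in young Ythdf2 CTL and at 8.96 to 22.6 CPM in young Ythdf2 CKO mice. These ranges overlapped in part, with a log2 fold change of 1.16 (SE 0.47, p = 0.0252, adjusted p = 0.604 by edgeR). Btg2, an antiproliferative gene, gave 0.40 in young mice and 1.34 (SE 0.47, p = 0.0131, adjusted p = 0.4) in aged mice, and Sfn, which encodes 14-3-3σ, gave −1.92 (p = 0.0433, adjusted p = 0.479) in aged mice.

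Of 15 apoptosis targets 14 were tested in young mice, with Eda2r, a death receptor of the TNF family, at 3.1 (SE 0.84, p = 0.00194, adjusted p = 0.276) and Perp, a membrane protein of cell death and adhesion, at −2.57 (SE 0.79, p = 0.0049, adjusted p = 0.365). In aged mice all 15 were tested, with Aen, an exonuclease, at 0.78 (SE 0.28, p = 0.0146, adjusted p = 0.4) and Bax, which permeabilizes mitochondria, at 0.43 (SE 0.21, adjusted p = 0.513, all by edgeR). The log2 fold change was above 0 for 8 of 14 genes in young mice, beside 49.9% of all genes, and for 12 of 15 genes in aged mice, beside 49.7%, with medians of 0.17 and 0.40. In aged mice without the 2 discordant ones it was above 0 for 9 of 15, beside 49.2%, with a median of 0.49. The other lists had 5 of 8 arrest targets, 3 of 9 repair and metabolism targets, 4 of 14 regulators and 5 of 18 partners of the damage kinases above 0 in young mice. In aged mice these were 4 of 8, 6 of 10, 3 of 14 and 5 of 18. Without the 2 discordant mice they were 4 of 8, 7 of 10, 3 of 14 and 10 of 18, so the partners no longer lay mostly below 0. Of the repair and metabolism targets (9 tested in young and 10 in aged mice), Sesn3 gave 0.92 (p = 0.0396, adjusted p = 0.674, edgeR) in young mice. Ddb2, a sensor of UV damage, gave −0.45 in young and −0.59 (p = 0.0385, adjusted p = 0.464, edgeR) in aged mice, and Fdxr 0.88 in aged mice. Without the 2 discordant mice 1 of these 10 was higher and 0 were lower at an unadjusted p below 0.05 in aged mice, beside 11.6% of all genes.

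Among 14 regulators of p53, Ep300, the acetyltransferase p300 that acts on p53 and on histones, had the smallest p in aged mice. It was at 69.9, 68.5, 88.7 and 102 CPM in aged Ythdf2 CTL and at 36, 36.8, 42.4, 23.2 and 36 CPM in aged Ythdf2 CKO mice. The groups did not overlap, with mouse 124 the highest and mouse 121 the lowest of all, and the log2 fold change was −1.23 (SE 0.23, p = 0.000119, adjusted p = 0.211) with all mice and −1.01 (SE 0.21, adjusted p = 0.078) without both, by edgeR. Ep300 gave −0.63 (SE 0.31, adjusted p = 0.712) in young mice, and Usp7, a deubiquitinase of MDM2 and p53, gave −0.72 (SE 0.2, p = 0.00272, adjusted p = 0.319) in aged mice. Rchy1, another ubiquitin ligase of p53, gave 0.38 in young mice. Of 18 partners of the damage kinases, Chek1, the kinase downstream of ATR, gave −0.58 (p = 0.0284, adjusted p = 0.621, edgeR) and Topbp1, its activator, −0.32 in young mice. Mdc1 gave −1.23 (p = 0.0331, adjusted p = 0.447, edgeR) and Rad50, of the break-binding MRN complex, −0.40 in aged mice. Without the 2 discordant mice 0 of the 18 were lower and 1 was higher at an unadjusted p below 0.05 in aged mice, beside 11.6% of all genes. The groups of genes of like length had median log2 fold changes in aged mice of −0.25 for Ep300 (14273 exonic bases), −0.10 for Usp7 (7766 bases) and −0.07 for Mdc1 (7421 bases), and the part of length in these values was not tested.

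Between aged and young HSCs genes of these lists were called. Cdkn1a rose from 7.13 ± 3.54 CPM (SD, n = 4) to 36.3 ± 15 CPM (SD, n = 4) in Ythdf2 CTL HSCs, with a log2 fold change of 2.33 (SE 0.49, adjusted p = 0.00384, edgeR), and from 15.9 ± 5.82 (SD, n = 4) to 57.2 ± 31.8 CPM (SD, n = 5) in Ythdf2 CKO HSCs, with 1.85 (SE 0.46, adjusted p = 0.00826, edgeR). Every aged mouse had more Cdkn1a than every young mouse of its genotype. In Ythdf2 CTL HSCs, where 6.71% of all genes were called higher, 2 of 8 arrest targets rose (Cdkn1a and Plk3, at 1.70) and in Ythdf2 CKO HSCs, where 7.22% were, 4 of 8 rose (Cdkn1a, Btg2 at 1.73, Plk2 at 2.70 and Gtse1, a negative regulator of p53, at 1.31), with medians of 1.16 and 1.27 over the list and 0.11 and 0.07 over all genes. Of 15 apoptosis targets 1, Trp53i11, rose in Ythdf2 CTL HSCs (1.84), a share near that 6.71%. In Ythdf2 CKO HSCs 3 of 15, Trp53i11 (1.88), Perp (3.30) and Pidd1, the scaffold of the PIDDosome (1.31), rose, beside the 7.22%, and 1, Triap1, an inhibitor of apoptosis, fell (−0.71), beside 9.42%. Of 10 repair and metabolism targets tested, Rps27l, a ribosomal protein gene that p53 induces, fell in both genotypes (−1.18 and −0.95), beside 8.16% and 9.42% of all genes. Without the 2 discordant mice Plk2 (2.38) was called higher and Bax (−0.62) lower in Ythdf2 CTL HSCs too, and no call of these 3 lists was lost. These calls had adjusted p between 0.00146 and 0.0392 by edgeR, and those of Cdkn1a, Trp53i11 and Rps27l in both genotypes and of Btg2 in Ythdf2 CKO HSCs held under each alternative run.

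Of the 14 regulators, Usp7 (0.97), Ep300 (1.02) and Crebbp (1.51), the paralog of Ep300, rose with age in Ythdf2 CTL HSCs, beside 6.71% of all genes, and 2 of 14, Usp7 and Ep300, without the 2 discordant mice. Of the 14, edgeR called 0 in Ythdf2 CKO HSCs, with or without these mice, and 2 were at an unadjusted p below 0.05 with all mice, beside 30.2% of all genes. For Ep300 the difference between these effects is the interaction of −0.61 (SE 0.39, p = 0.131, adjusted p = 0.999, edgeR), which did not pass. Of the 18 partners of Atm and Atr, 3 fell and 0 rose in each genotype, where 8.16% of all genes were called lower in Ythdf2 CTL and 9.42% in Ythdf2 CKO HSCs. Without the 2 discordant mice 6 of 18 were called lower in Ythdf2 CTL HSCs, Rad17, Prkdc and Topbp1 being added, beside 10.1% of genes, and 3 of 18 in Ythdf2 CKO HSCs, beside 10.5%. Nbn, which recruits ATM to breaks, fell in both (−0.73 and −0.64), as did Chek1 (−1.14 and −0.97). Rad1 fell in Ythdf2 CTL (−0.72) and Rad17 in Ythdf2 CKO HSCs (−0.96), members of the clamp and the clamp loader that serve ATR. The calls with all mice among these regulators and partners have adjusted p between 0.00414 and 0.0422, and of them that of Usp7 held under each alternative run.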

How the data were processed

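HSCs of 17 mice were measured by SMART-Seq2 RNA-seq. Per the labels and the study's methods, the authors aligned reads to mm10 with HISAT2 and deposited whole-number counts per gene and library, without normalization, in 34 columns. The annotation and the use of strand in counting are not given in the sources used here. Library aged Ythdf2 CTL 99 B was left out, as the submitters did. Counts of the 2 libraries of a mouse differed beyond sampling noise in each of 16 mice (chi-square per degree of freedom at least 10.2) and were added, so that the mouse was the replicate. Of 13108 row names, 13070 matched GENCODE vM21, which gave GRCm38 coordinates and lengths, and 20 names had turned into dates.

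The filterByExpr rule (at least 10 counts in a sample, 15 in total) chose the genes. TMM scaling and the robust quasi-likelihood test came from edgeR 4.0.16 (R 4.3.3), and p-values were adjusted over all genes by Benjamini-Hochberg, with a threshold of 0.05. Young and aged mice were fitted apart. Age and the difference between ages came from 1 fit over 17 mice. SE was taken as the ratio of the log2 fold change to the root of F, and log2 CPM used a prior count of 2. Pairs of genes were tested by 100000 permutations within groups, in Python 3.11.15 with scipy 1.17.1. Levels per kb use the longest coding transcript. The test was tested on simulated data with 200 changed genes among 12352.

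Named are the 10 genes, Ythdf2, and of 5 pathway lists each called gene and the 2 with the smallest p in each comparison of genotypes. The 3 genes most like Trp53 are named too. The members and lists were chosen with earlier results of these data known. Alternatives were likelihood ratio tests, libraries as replicates, DESeq2 1.42.0, its size factors, limma 3.58.1, no filter, a Y-linked covariate, replicate blocks, the left-out library and each mouse or both discordant mice left out. The readout by gene length and the length index were added after seeing the data.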

Additional observations from a re-analysis of the deposited data

Results flagged for a closer look

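Among the 44 groups of values examined (the 10 genes and Ythdf2 in 4 groups of mice), 1 sample stood farther from its group than Dixon's 95% limit allows, where chance gives about 2.2. In aged Ythdf2 CKO mice Ythdf2 was at 188.1 CPM in mouse 121, and the next highest mouse had 87.75 CPM. The gap was 0.867 of the range of the group, and the limit for 5 samples is 0.71. None of the 10 p53 pathway genes was so placed. Mouse 121 also had the lowest Phlda3 of its group, at 3.03 CPM, and the lowest Trp53, at 226 CPM. The cause was not tested.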

How the results depend on the processing

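In both comparisons of genotypes none of the 10 genes was called under any alternative run. Mdm2 and Atm kept direction and call in both comparisons with age under each alternative run. Of 966 values of single genes under an alternative, 880 kept direction and side of the threshold, 77 changed sign and 9 came to pass the test, all 9 being Sesn2 with age. Of 22 calls of list genes with age, 8 held under each alternative and 0 changed sign. Plk3 in CTL was lost under 10 of 16 alternatives, and Crebbp, at an adjusted p of 0.0577, without both discordant mice (edgeR). Over libraries Huwe1, Usp7 and Ep300 were called lower in aged CKO mice, and Btg2 (1.39, adjusted p = 0.0182) was called higher by the likelihood ratio test of edgeR. Ythdf2 in young mice stayed between −1.01 and −0.87 without 1 mouse. Causes were not tested.

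The count of all genes called was 18 in young mice. It was 67 with likelihood ratio tests over mice, 90 with them over libraries, 45 with quasi-likelihood over libraries, 77 with DESeq2, 10 with the Y-linked covariate and 49 with the library letter as a replicate block. Without 1 mouse it ran from 0 to 18, with 0 without young CTL mouse 1 or 2, 5 or 8 without CKO mouse 1 or 2, and 6 or 10 without CTL mouse 3 or 4. In aged mice the count of 0 became 76, 420, 132, 104 and 70 in that order without the covariate, and 41 without both discordant mice. It ran from 0 to 16 without 1 mouse, with 16 without CKO 121 and 1 without CTL 65. The interaction called 4 and 3 genes in likelihood ratio tests over mice and libraries, 14 without the discordant mice, and 0 to 2 without 1 mouse, with 2 without CKO 121. Aged against young CTL ran from 942 to 2071 without 1 mouse, with 1135, 1133 and 942 without young CTL 1, 3 and 4. Aged against young CKO gave 3112 in likelihood ratio tests over libraries and 1214 to 1976 without 1 mouse, with 1258 and 1214 without young CKO 2 and 3. By exact permutation over aged mice, 0 to 1 of the 10 genes passed without 1 mouse, the 1 being Atr without CTL 99. Pairs passing fell from 2 to 1 without the discordant mice.

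Young mouse numbers 1 to 4 are shared by different animals of both genotypes, and deviations of same-numbered mice had r between −0.04 and 0.05. With the number as a replicate block 14 genes were called, none of them among the 10, and Atr was at −0.02. With the library letter as a replicate block Trp53 was at 0 in aged mice, and the interaction was −0.03 for Trp53 and 0.38 for Sesn2.

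Other changes of sign were as follows. With the Y-linked covariate Atr was at −0.11, Sesn2 at 0.02 and Trp53inp1 at 0.46 in young mice, Sesn2 at 0.18 in aged mice, and the Ccng1 interaction at −0.21. In limma Sesn2 was at 1.37 in aged mice. Without the discordant mice the interaction was 0.59 for Phlda3 and −0.11 for Ythdf2. Over libraries, by likelihood ratio or quasi-likelihood, the interaction was −0.03 for Trp53 and 0.34 or 0.33 for Sesn2, aged against young CTL gave 0.03 for Trp53 and 0.06 for Atr, and aged against young CKO gave 0 for Trp53 and −0.03 for Mdm4. Ccng1 in CTL with age stayed at 0 in DESeq2, with its size factors and with no filter.

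Leaving out 1 mouse, the ranges that crossed 0 were, in young mice, −0.04 to 0.11 for Trp53, −0.01 to 0.39 for Mdm4, −0.08 to 0.44 for Atm, −0.11 to 0.21 for Atr and −0.34 to 0.1 for Trp53inp1. In aged mice they were −0.1 to 0.23 for Trp53 and −0.76 to 0.65 for Sesn2. For the interaction they were −0.11 to 0.21 for Trp53, −0.2 to 0.26 for Ccng1, −0.7 to 0.33 for Phlda3 and −0.5 to 0.91 for Sesn2. For age in CTL mice they were −0.2 to 0.13 for Trp53, −0.38 to 0.13 for Atr, −0.13 to 0.14 for Ccng1 and −0.18 to 0.43 for Trp53inp1. For age in CKO mice they were −0.09 to 0.09 for Trp53, −0.11 to 0.27 for Mdm4 and −0.21 to 0.26 for Ccng1. Without the 2 mice farthest from the median, both pairs that passed kept their sign.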
